A study of Homo sapiens with 12 samples.

Results

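The 40 mitosis genes described here encode the cyclins, kinases, checkpoint proteins, kinetochore proteins, kinesins and cytokinesis factors that carry a cell from late G2 through division. They were chosen by name, from what is known of the G2 and M phases of the cell cycle. The rule uses no measured value, but the list was drawn up with earlier results of these data known. All 40 were among the 26485 gene symbols of the count table, and all 40 were among the 17176 genes that passed the filter on low counts and were tested. They fall into 9 roles, with 7 genes of the cyclin-CDK switch, 4 mitotic kinases and chromosomal passengers, 5 genes of the spindle assembly checkpoint, 2 partners of the anaphase-promoting complex, 5 genes of centromere and kinetochore, 6 mitotic kinesins, 6 spindle assembly factors, 2 genes of mitotic chromosomes and 3 of cytokinesis.

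Poly(A) RNA was sequenced from WT HEK293 cells, a dividing human embryonic kidney line, harvested at 48 hr. The transfected plasmid (1 μg) encoded PEG10 gag-pol, PEG10 gag, the PEG10 nucleocapsid (NC) or, in the control, LifeAct-Dendra2, a fluorescent label of actin filaments. PEG10 is a gene of retrotransposon origin whose gag and gag-pol proteins are made from 1 RNA by ribosomal frameshifting, and NC is the last part of gag, which holds a zinc finger and can be released by self-cleavage. Each of the 4 constructs had 3 replicates, which the series description gives as separate passages of 1 cell line without saying which library came from which, so that p-values describe the spread among these samples. Transfection was transient and driven by a CMV promoter, and each library averages over cells with and without plasmid.

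The 12 libraries held 30625725 to 45316749 counts. As a check of the labels, *PEG10* took 0.0230% to 0.0346% of all counts in control. Its share was 2.80% to 7.35% in gag-pol libraries, 3.78% to 6.10% in gag libraries and 0.238% to 0.389% in NC libraries, so that gag-pol and gag, which overlapped, are not told apart by this check. The HEK293 markers *VIM*, *KRT8*, *KRT18*, *PAX2*, *NEFL* and *NEFM* were present in all 12 libraries. Their summed level in CPM (counts per M, or mega, of TMM-scaled library size) was 863 to 1059.7 in control, 1130.0 to 1176 for gag-pol, 980.3 to 999.7 for gag and 1103 to 1403 for NC. Of the 10 markers of other cell types, *PTPRC*, *CD3E*, *CDH5*, *DCN* and *HBB* never exceeded 9 counts and were at 0 in 10, 7, 4, 9 and 11 libraries. The others had counts in every library, *CD68* from 441 to 922, *COL3A1* from 19 to 350, *GFAP* from 19 to 71, *ALB* from 6 to 50 and *PECAM1* from 1 to 30. The summed level of all 10 was 16.2 to 32.0 CPM in control against 16.9 to 30.7 CPM over the other constructs. Their part in the results was not tested.

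Entry into mitosis is set by CDK1 bound to cyclin A or cyclin B, which the CDC25 phosphatases switch on and the kinase WEE1 holds back. Chromosomes are then condensed and attached to the spindle through kinetochores, and the spindle assembly checkpoint delays anaphase until every kinetochore is attached. The anaphase-promoting complex, with CDC20 and the ubiquitin-conjugating enzyme UBE2C, then marks cyclin B and securin for destruction, and the cell divides. Transcripts of most of these genes peak together in G2 and M. Their promoters often carry a cell cycle genes homology region (CHR), the binding site of the MuvB complexes, near CCAAT boxes, which are bound by NF-Y.

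Promoter sequence was read from RefSeq (GRCh38.p14), and 34 of the 40 genes had an entry. *UBE2C*, *TTK*, *TPX2*, *BIRC5*, *BUB3* and *AURKA* had none. A CHR core, TTTGAA or TTCGAA on either strand, occurred between 250 bases before and 50 bases after the 5′-most start in 25 of 34 (73.5%), against 4555 of 27305 promoters of the same length (16.7%). It occurred in 48 of 100 promoters of a wider list of genes of mitosis and its regulation, and in 2 of 34 (5.9%) of a list of S phase genes. CCAAT on either strand, including overlapping matches, was in 25 of 34 (73.5%) against 35.7% of all promoters, and both motifs were in 21 of 34 (61.8%) against 6.6%. With the 50 bases after the start left out, the CHR core was in 18 of 34 (52.9%) against 14.6% of all promoters.

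The promoters of the 4 genes that had the smallest p in the joint test of the constructs, among those with an entry, are shown because these genes recur in the comparisons below. They are written 5′ to 3′ on the strand of the gene, with CHR cores and CCAAT boxes in capitals (TTCAAA and ATTGG are the same motifs on the other strand). For *TOP2A* (chr17:40417897-40418146, minus strand) and *CDK1* (chr10:60778081-60778330, plus strand) these are the 250 bases before the start. For *HMMR* (chr5:163460595-163460624, plus strand) and *KIF23* (chr15:69414282-69414311, plus strand), whose windows overlap an annotated exon, only 30 bases around the CHR core are shown.
TOP2A: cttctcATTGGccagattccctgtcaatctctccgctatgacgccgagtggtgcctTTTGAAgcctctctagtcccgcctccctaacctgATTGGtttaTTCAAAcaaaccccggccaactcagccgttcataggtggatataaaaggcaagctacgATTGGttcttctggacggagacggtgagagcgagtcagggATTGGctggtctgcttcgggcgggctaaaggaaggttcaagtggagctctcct
CDK1: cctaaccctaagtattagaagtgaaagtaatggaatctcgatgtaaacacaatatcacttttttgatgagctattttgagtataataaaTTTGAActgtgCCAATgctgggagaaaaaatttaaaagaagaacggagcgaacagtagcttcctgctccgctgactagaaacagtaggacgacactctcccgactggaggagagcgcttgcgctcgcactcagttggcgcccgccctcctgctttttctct
HMMR: gtggggagaTTTGAATTTGAAaccggtagg
KIF23: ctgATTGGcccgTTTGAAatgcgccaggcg
*HMMR* carried 2 CHR cores in tandem, which began 28 and 22 bases before the start. *KIF23* had an ATTGG at 64 and a TTTGAA at 55 bases before the start. *TOP2A* had a CHR core at 194 and another at 151 bases before the start, together with 4 CCAAT boxes. In *CDK1* a TTTGAA at 161 and a CCAAT at 150 bases before the start stood side by side. These are matches of letters only, and binding was not measured.

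The 40 genes lie on 18 chromosomes (GRCh38, GENCODE release 44). *UBE2C* lies at chr20:45812576-45816957 (plus strand), *BUB3* at chr10:123154402-123170467 (plus strand), *AURKB* at chr17:8204733-8210600 (minus strand), *MKI67* at chr10:128096659-128126423 (minus strand), *CENPF* at chr1:214603185-214664574 (plus strand). In 8 of the 40 an exon overlaps an exon of another gene on the opposite strand, in 3 an exon of another gene on the same strand, and 11 have pseudogenes that carry their name, so that their counts are uncertain to the extent that reads were shared.

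The levels of the 40 genes spanned a wide range. Per kb of the longest annotated transcript, *AURKB*, the kinase of the chromosomal passenger complex, was at 138 ± 23.8 CPM per kb in control (SD, n = 3). *CKS2*, a small CDK-binding subunit, was at 113 ± 11.8, *UBE2C* at 103 ± 14.7 and *CDC20* at 93.8 ± 6.22 CPM per kb. Each of these 4 overlapped with the next in the order over the control libraries, so that neighbors did not differ beyond their spread. At the low end stood the kinesin *CENPE*, which links kinetochores to microtubules, at 6.97 ± 1.13 CPM per kb, and *KIF14*, a kinesin of late cytokinesis, at 7.86 ± 0.848, which overlapped too. Counts of single libraries ran from 409 to 70383 per gene. Counting error was thus below the biological coefficient of variation of 10.7%, which was estimated over all genes. Some genes varied less within a construct, such as *MAD2L1* with gag at 61.2 ± 0.628 CPM (SD, n = 3). Between the lowest and the highest library a gene differed by 1.20 times (*NUSAP1*) to 4.12 times (*MKI67*), with a median of 1.43 times, and 38 of 40 stayed under 2 times.

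**Figure D1:**
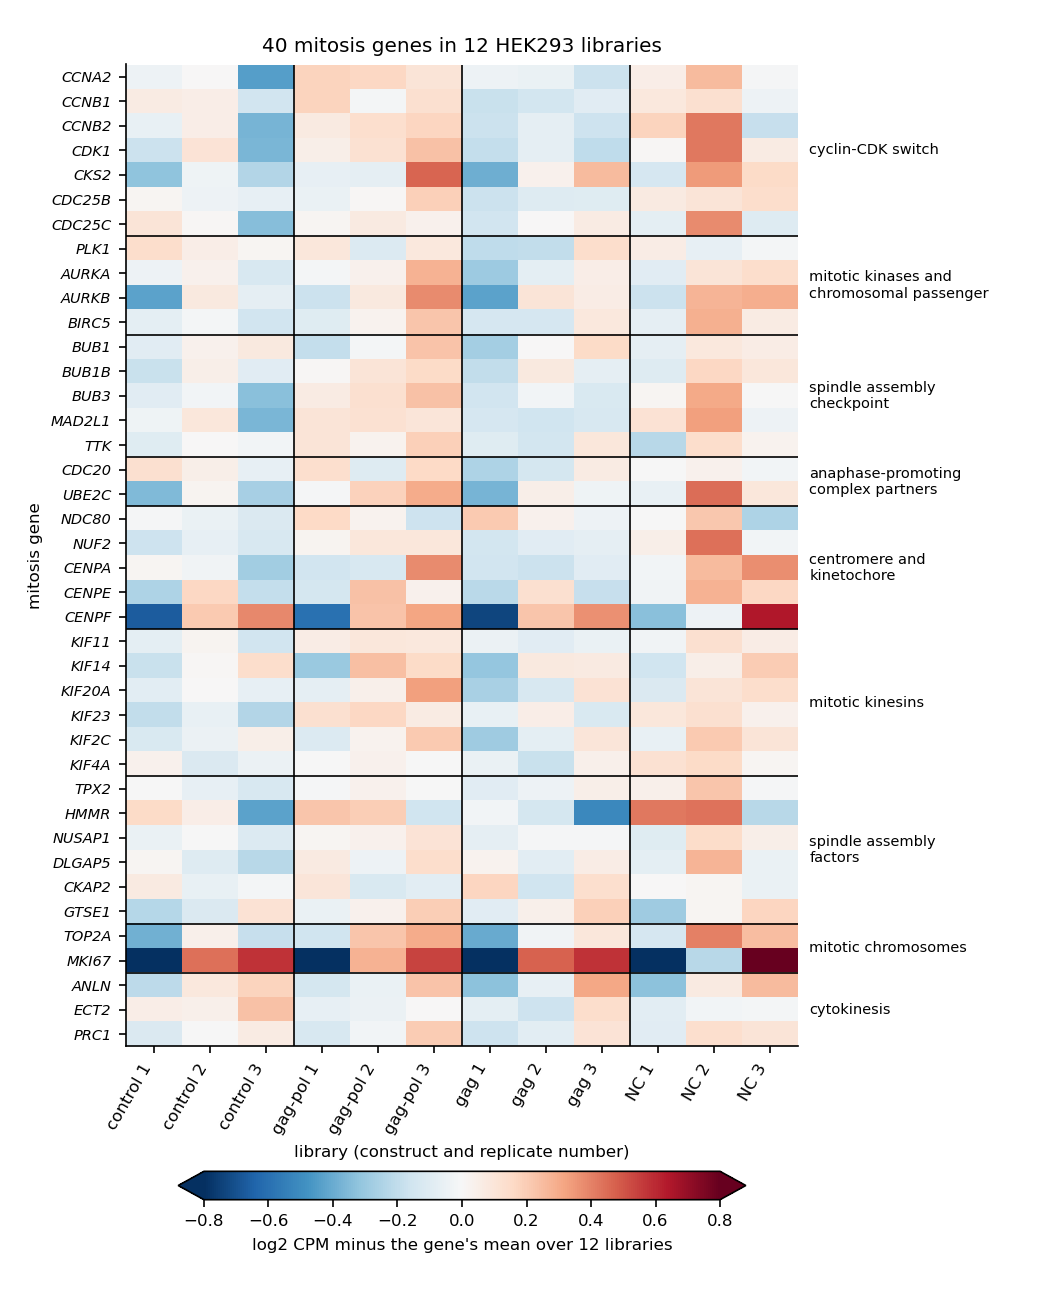
Heat map of the 40 mitosis genes (rows, grouped by role) in the 12 libraries (columns, grouped by construct). Color shows log2 CPM minus the mean of the gene over all 12 libraries, and values past 0.8 take the end color. *MKI67* and *CENPF* were lowest in replicate 1 of every construct, and of the 13 genes higher with gag-pol and NC than with gag and control, 10 were highest in NC replicate 2 and 6 lowest in control replicate 3.

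To ask whether PEG10 constructs change the mitotic program, each was first compared with control in a single fit of construct and replicate number to the 12 libraries (edgeR's quasi-likelihood test, Benjamini-Hochberg adjustment over 17176 genes, threshold 0.05). With gag-pol, 6 of 40 mitosis genes rose and none fell, and with NC 7 rose and none fell. With gag, none passed the test. Against this, 11.3% of all genes tested were called with gag-pol (5.48% higher and 5.83% lower), 11.2% with NC (6.04% higher and 5.15% lower) and 1.08% with gag (0.699% higher and 0.384% lower). The median log2 fold change of the 40 genes was 0.133 with gag-pol (1.10-fold), 0.131 with NC (1.10-fold) and -0.006 with gag, where the median of all genes tested was -0.001, 0.004 and 0.003. In a bulk sample, a different share of cells in G2 and M and a different amount of these RNAs per cell cannot be told apart. The 3 comparisons share the control libraries and are not independent.

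**Figure D2:**
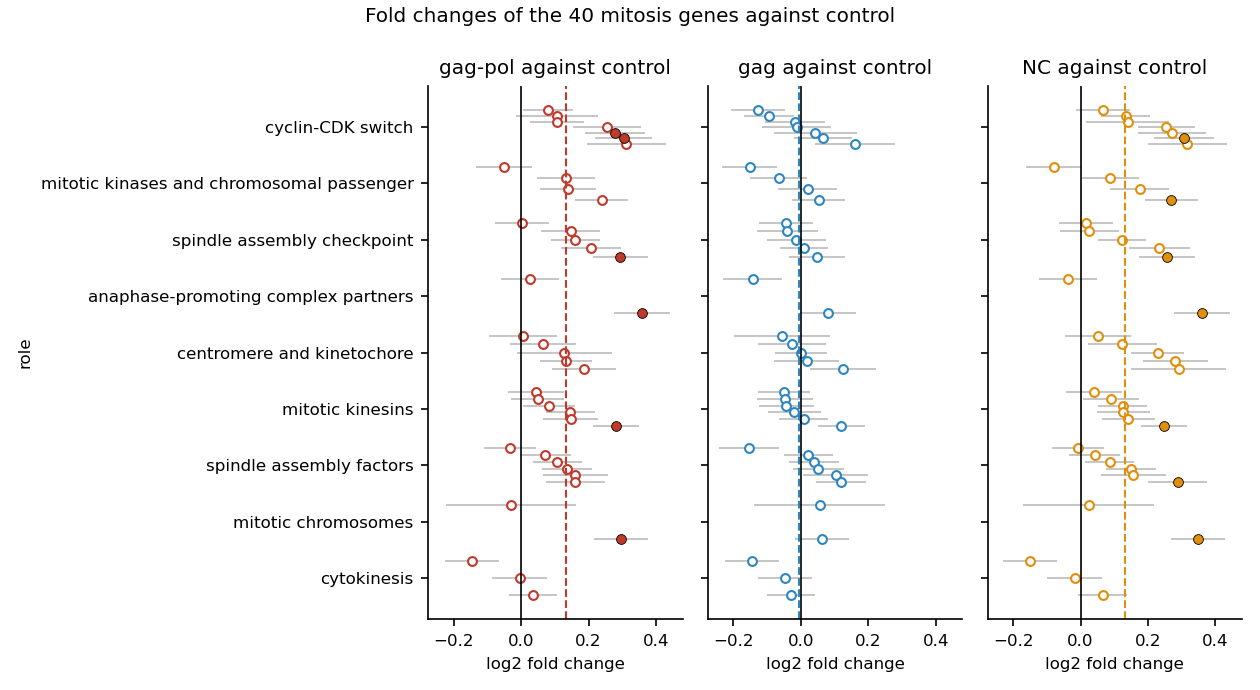
Log2 fold change of each mitosis gene against control (x axis) by role (y axis) for gag-pol, gag and NC. Bars are standard errors, filled points passed the test at an adjusted p under 0.05, and dashed lines are the medians over 40 genes, 0.133, -0.006 and 0.131. Most points lie right of 0 with gag-pol and NC, and around 0 with gag.

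*UBE2C*, the ubiquitin-conjugating enzyme of the anaphase-promoting complex, was at 84.4, 109.8 and 89.6 CPM in control replicates 1, 2 and 3 and at 107, 123 and 132 CPM with gag-pol. With NC it was at 104, 147 and 115 CPM, and with gag at 83.5, 112 and 105 CPM. Every gag-pol and NC library lay above the control library of its number, although control replicate 2 reached the range of both. The log2 fold change was 0.36 ± 0.08 (SE) with gag-pol (1.28-fold, adjusted p = 0.00786) and 0.36 ± 0.08 with NC (1.28-fold, adjusted p = 0.00943). With gag it was 0.08, below the threshold. *UBE2C* has 5 annotated pseudogenes that carry its name, and how reads with several matches were counted is not given in the sources used here.

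*TOP2A*, the topoisomerase that untangles sister chromatids, was at 405, 545 and 466 CPM in control, at 475, 617 and 651 CPM with gag-pol and at 483, 699 and 629 CPM with NC. It was at 401, 518 and 564 CPM with gag. Replicate 1 was the lowest of its group in all 4 constructs, and the groups overlapped. Within replicate numbers it was higher than control in 3 of 3 with gag-pol (log2 fold change 0.30 ± 0.08, adjusted p = 0.0192) and in 3 of 3 with NC (0.35 ± 0.08, adjusted p = 0.00914). *CDK1*, the kinase that drives entry into mitosis, was at 116, 141 and 101 CPM in control, at 135, 142 and 154 CPM with gag-pol and at 132, 175 and 137 CPM with NC. With gag it was at 114, 124 and 113 CPM, and all 3 gag libraries lay below all gag-pol and NC libraries. It rose by 0.28 ± 0.09 with gag-pol (adjusted p = 0.0463) and by 0.31 ± 0.09 with NC (adjusted p = 0.0297).

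*KIF23* and *BUB3* were the genes for which both gag-pol and NC libraries were all above all control libraries and the test was passed. *KIF23*, the kinesin of the central spindle, was at 109.96, 121 and 107 CPM in control, at 138, 141 and 132 CPM with gag-pol and at 134, 138 and 129 CPM with NC. It was at 121, 131 and 116 CPM with gag, between control and the other constructs in every replicate number. It rose by 0.28 ± 0.07 with gag-pol (adjusted p = 0.011) and by 0.25 ± 0.07 with NC (adjusted p = 0.0242). *BUB3*, a checkpoint protein at unattached kinetochores, was at 181, 190.2 and 153 CPM in control, at 202, 211 and 227 CPM with gag-pol and at 195, 239 and 193 CPM with NC. With gag it was at 173, 190.1 and 177 CPM. It rose by 0.29 ± 0.08 with gag-pol (adjusted p = 0.0233) and by 0.26 ± 0.08 with NC (adjusted p = 0.0476). In all, 9 mitosis genes for gag-pol, 4 for NC and 0 for gag exceeded control in every pair of libraries, where 6.74%, 4.56% and 4.2% of all genes tested did.

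3 further genes passed against control with 1 construct each. *CCNA2*, cyclin A2, was at 60.1 ± 9.67 CPM in control and at 73.8 ± 2.13 CPM with gag-pol (SD, n = 3), a log2 fold change of 0.30 ± 0.08 (adjusted p = 0.0226). *AURKB* was at 139.7, 198 and 179 CPM in control and at 167, 227 and 229.9 CPM with NC, a log2 fold change of 0.27 ± 0.08 (adjusted p = 0.0301). With gag-pol it was at 167, 199 and 244 CPM and with gag at 139.9, 202 and 196 CPM. *HMMR*, a spindle assembly factor first known as a hyaluronan receptor, was at 42.6, 39.8 and 28.4 CPM in control and at 51.2, 51.8 and 32.9 CPM with NC, a log2 fold change of 0.29 ± 0.09 (adjusted p = 0.0355). Passing with 1 construct does not show that these genes differed between gag-pol and NC, and none of the 40 passed in the direct comparison of those constructs.

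By role, the cyclin-CDK switch had the highest median of the 9 roles with both constructs, 0.256 with gag-pol and 0.255 with NC, and all 7 of its genes were positive in both. *CCNB1*, cyclin B1, was at 112.1, 111.5 and 96.3 CPM in control, at 121, 106 and 117 CPM with gag-pol, at 94.8, 97.1 and 100.6 CPM with gag and at 114, 117 and 104 CPM with NC. It overlapped between groups and did not pass against control with any construct. Spindle assembly checkpoint genes had medians of 0.161 and 0.123, kinetochore genes of 0.128 and 0.229 and kinesins of 0.114 and 0.126. The 3 cytokinesis genes had medians of -0.005 and -0.018. Of these, *ECT2*, the exchange factor that activates RhoA at the division site, was at 60.6, 60.1 and 68.8 CPM in control, at 55.8, 56.6 and 58.5 CPM with gag-pol and at 55.1, 57.5 and 57.7 CPM with NC, and did not pass the test with either. It was chosen after its values were seen, as the 1 mitosis gene with every library below every control library in both comparisons. Taken singly, 6.75% of all genes tested were below in this way with gag-pol and 4.94% with NC. The share below in both is not given here.

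With gag, the fold changes of the 40 genes ran from -0.154 (*HMMR*) to 0.161 (*CKS2*), and 20 of 40 were positive. None had an unadjusted p under 0.05 in edgeR's test, and DESeq2 called none as well. The largest values were 0.16 ± 0.12 (SE) for *CKS2*, -0.15 ± 0.09 for *HMMR* and -0.15 ± 0.08 for *PLK1*, the polo-like kinase of spindle assembly. *CKS2* was at 63.6, 77.6 and 67.5 CPM in control and at 60.7, 81.3 and 94.6 CPM with gag, so that the difference came from replicate 3, and without replicate number 3 it was -0.004. *PLK1* was at 214.3, 201.8 and 196.3 CPM in control and at 168.9, 169.4 and 214.5 CPM with gag, so that replicates 1 and 2 lay below all control libraries and replicate 3 above them. 1 of 40 genes, *CDC25B*, had all gag libraries below all control libraries, where 2.91% of all genes tested did.

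The counts against control rested on single libraries and on the use of replicate number in the fit. Without the replicate block, 0 of 40 genes were called in each of the 3 comparisons, where 2 genes of the whole table were called in each. For gag-pol the count fell to 1 when control replicate 3, gag-pol replicate 1 or gag-pol replicate 3 was left out, and was 0 without replicate number 1 and 1 without replicate number 3. With only the 6 libraries compared, 1 was called. For NC it was 0 without control replicate 3, 4 without control replicate 1 or 2, 2 without NC replicate 1 and 12 without gag-pol replicate 3, and 0, 1 and 4 without replicate numbers 1, 2 and 3. For gag it was 1 without replicate number 3. The medians without the block were 0.136 for gag-pol and 0.132 for NC. Every construct had 1 library of each replicate number, so leaving out the block could hardly move the fold changes. These medians are therefore no check of the result.

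**Figure D3:**
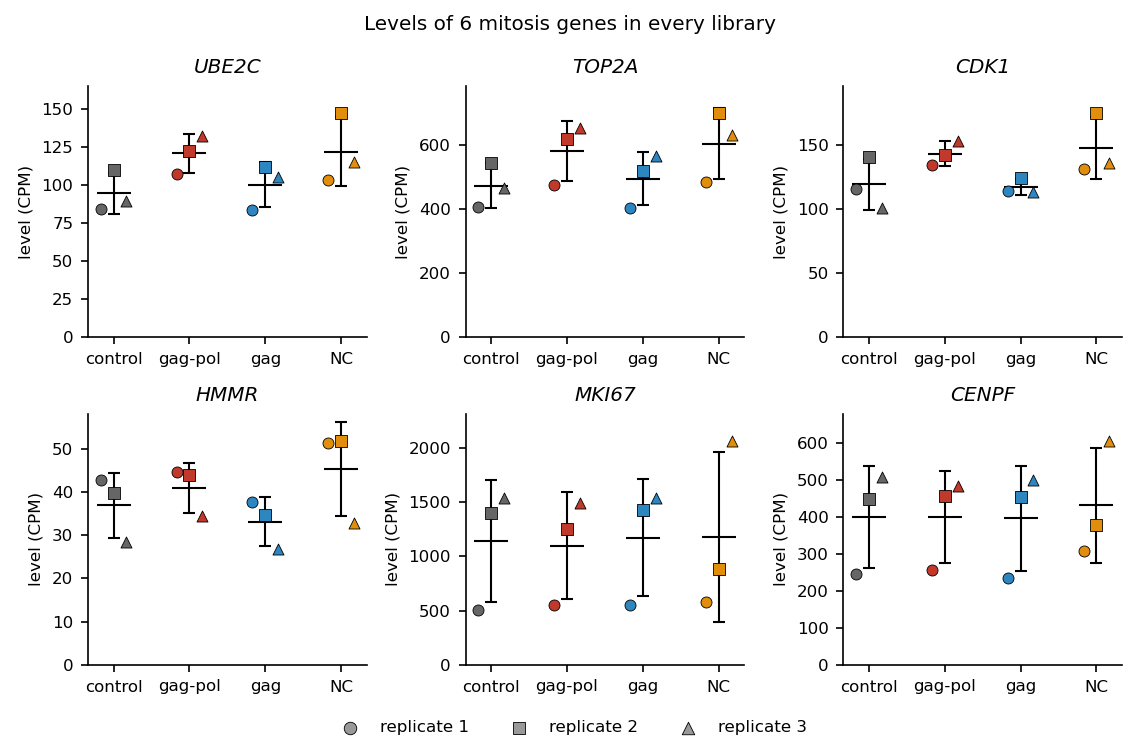
Levels in CPM (y axis, from 0) of 6 mitosis genes in every library by construct (x axis). Symbols mark replicate numbers, and horizontal lines with bars are the mean ± SD of 3 replicates. *UBE2C*, *TOP2A*, *CDK1* and *HMMR* sit higher with gag-pol and NC than with gag within a replicate number, while *MKI67* and *CENPF* follow the replicate number in all 4 constructs.

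The constructs were next compared with each other, to ask what the pol region or the liberated fragment adds over gag, which contains the same NC sequence. Between gag-pol and gag, 3 of 40 genes were higher with gag-pol and none lower, where 6.46% of all genes tested were called (3.03% higher and 3.42% lower). They were *HMMR* (log2 fold change 0.31 ± 0.09, adjusted p = 0.033), *UBE2C* (0.28 ± 0.08, adjusted p = 0.047) and *CDK1* (0.30 ± 0.09, adjusted p = 0.0492). *HMMR* was at 44.6, 43.95 and 34.3 CPM with gag-pol and at 37.8, 34.7 and 26.8 CPM with gag, higher with gag-pol in 3 of 3 replicate numbers although the groups overlapped. The median of the 40 genes was 0.145 and that of all genes -0.014. Without the replicate block 0 were called, with only the 6 libraries compared 11, with the trend on GC content and length removed 7 and without robust estimation 1. The count was 0 without gag-pol replicate 1 or 3, without any 1 gag replicate or without replicate number 1, was 1 without control replicate 2, NC replicate 1 or replicate number 2 or 3, and was 5 without gag-pol replicate 2 and 8 without control replicate 3.

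Between NC and gag, 7 of 40 genes were higher with NC and none lower, where 16.9% of all genes tested were called (8.76% higher and 8.12% lower). *HMMR* had the largest difference, 0.44 ± 0.09 (1.36-fold, adjusted p = 0.00222), and was higher with NC in 3 of 3 replicate numbers. *CDK1* (0.33 ± 0.09, adjusted p = 0.0159), *TOP2A* (0.28 ± 0.08, adjusted p = 0.0178) and *UBE2C* (0.28 ± 0.08, adjusted p = 0.0242) followed. 3 genes passed that had not passed against control. *CDC25B*, a phosphatase that activates CDK1, was at 181, 185 and 189.7 CPM with NC and at 153, 161 and 161 CPM with gag, with no overlap (0.23 ± 0.07, adjusted p = 0.0353). *MAD2L1*, the checkpoint protein that holds CDC20, was at 73.2, 84.7 and 65.5 CPM with NC and at 61.4, 60.5 and 61.7 CPM with gag, also with no overlap (0.27 ± 0.09, adjusted p = 0.0386). *CENPE* was at 63.2, 78.0 and 72.2 CPM with NC and at 55.5, 70.4 and 56.7 CPM with gag (0.23 ± 0.08, adjusted p = 0.046). The median of the 40 genes was 0.141 against -0.006 for all genes. Without the replicate block 0 were called and with only the 6 libraries compared 3. The count was 1 without gag replicate 1 or 2, 2 without NC replicate 1, 3 without NC replicate 2 and 12 without control replicate 3, and 0, 2 and 15 without replicate numbers 1, 2 and 3.

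Between NC and gag-pol, none of the 40 genes passed and none had an unadjusted p under 0.05 in edgeR's test, where 0.0873% of all genes tested were called (0.00582% higher and 0.0815% lower). DESeq2 called 0 as well. The log2 differences ran from -0.12 ± 0.09 (*TTK*, the MPS1 kinase of the checkpoint) to 0.16 ± 0.14 (*CENPA*, the histone H3 variant of centromeres), with *HMMR* at 0.13 ± 0.09. In 36 of 40 genes the difference was under 0.1 in size, and standard errors ran from 0.07 to 0.19. At these errors a difference of the size seen against control would not be resolved in every gene.

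The mean of gag-pol and NC was then compared with the mean of gag and control, a grouping made with the results of the single comparisons known. 13 of 40 genes (32.5%) were higher with gag-pol and NC and none lower, where 24.7% of all genes tested were called (13.1% higher and 11.6% lower). The median was 0.134, against -0.007 for all genes. The largest changes were those of *UBE2C* (0.32 ± 0.06, adjusted p = 0.00063), *HMMR* (0.30 ± 0.06, adjusted p = 0.0014), *CDK1* (0.30 ± 0.06, adjusted p = 0.0017) and *TOP2A* (0.29 ± 0.06, adjusted p = 0.000958), followed by *CCNB2*, cyclin B2 (0.27 ± 0.07, adjusted p = 0.00846), and *BUB3* (0.25 ± 0.06, adjusted p = 0.00356). *CCNA2*, *MAD2L1*, *AURKB*, *NUF2*, *KIF23* and *CENPE* rose by 0.25, 0.24, 0.23, 0.23, 0.20 and 0.18 with adjusted p between 0.00434 and 0.0194. *BUB3* and *NUF2*, a subunit of the NDC80 complex that binds microtubules, were higher in all 6 gag-pol and NC libraries than in all 6 others, where 0.402% of all genes tested were, and none was lower in all 6, where 0.279% were. *NUF2* was at 34.1, 36.5 and 35.0 CPM in control, at 34.5, 35.9 and 36.4 CPM with gag, at 38.8, 40.7 and 40.6 CPM with gag-pol and at 39.4, 51.9 and 37.6 CPM with NC.

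Of the 13 genes, 4 belonged to the cyclin-CDK switch, 2 each to the spindle assembly checkpoint and to centromere and kinetochore, and 1 each to the other roles except cytokinesis, which had 0 of 3. NC replicate 2 was the highest of the 12 libraries for 10 of the 13, and control replicate 3 the lowest for 6. The count was 13 without NC replicate 2 and 12 without control replicate 3, so that its size did not rest on either library alone. Whether the same genes were called, and the count without both libraries, are not given here. The count was 6 without replicate number 1 and 0 without the replicate block. In the joint test of the 3 constructs against control, 10 of 40 genes passed, where 20.6% of all genes tested were called. That count was 0 without the replicate block, 6 without gag-pol replicate 1, 5 without gag replicate 1, and 0 and 6 without replicate numbers 1 and 2.

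Pairs of comparisons that have no library in common were set side by side. Of the 40 genes, 33 (82.5%) were higher with gag-pol than with control and also higher with NC than with gag, and 3 were lower in both, where 31.3% of all genes tested were higher in both and 32.3% lower. For NC against control with gag-pol against gag, 33 were higher in both and 2 lower, where 35.4% of all genes were higher in both and 37% lower. These comparisons still share replicate numbers and the fit. Both pairs split the same comparison of gag-pol and NC with gag and control, so that they are not separate checks. Transcripts of most of these genes peak together, so that the 40 genes are not separate observations either.

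**Figure D4:**
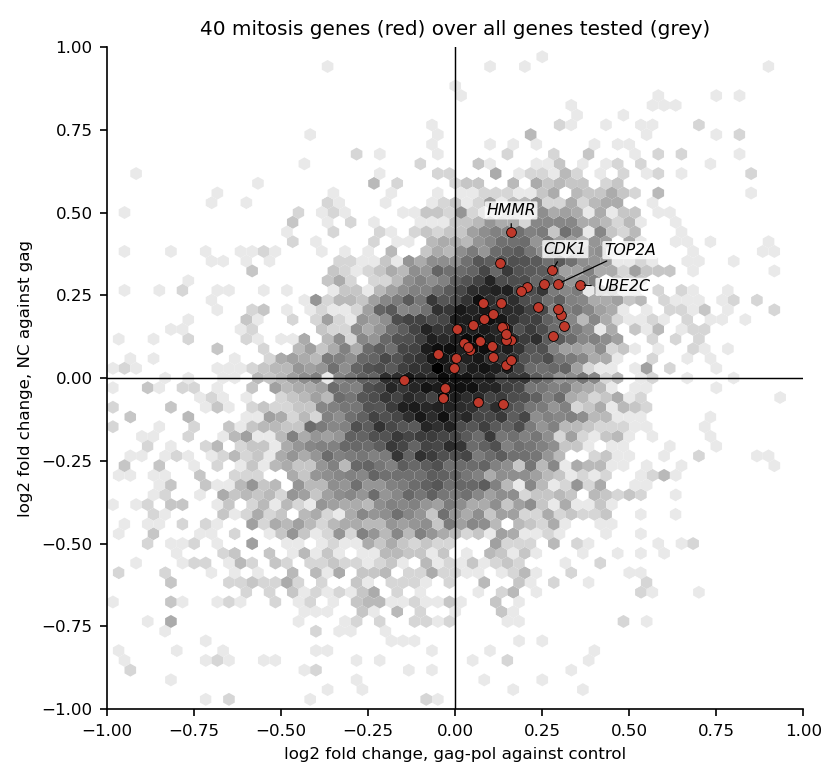
Log2 fold change of gag-pol against control (x axis) and of NC against gag (y axis), which have no library in common. Red points are the 40 mitosis genes and grey hexagons count all genes tested (darker is more, log scale), with 1197 genes beyond the axes. 33 of 40 red points lie in the upper right quadrant.

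Some mitosis genes also differed between replicate numbers, but in the main fit the share called was no larger than that of all genes tested. Of the 40 genes, 30% were called between replicates 2 and 1, 40% between 3 and 1 and 20% between 3 and 2. In the test of replicate number with constructs held, 19 of 40 genes passed, where 52.8% of all genes tested did. Against replicate 1, 12 genes were higher and none lower in replicate 2, where 30.5% of all genes were called (15.9% higher and 14.7% lower), and 14 were higher and 2 lower in replicate 3, where 41.6% were called (20.6% higher and 21% lower). Between replicates 3 and 2, 3 genes were higher and 5 lower, where 27.1% were called (12.9% higher and 14.1% lower). All 4 libraries of replicate 2 were above all of replicate 1 in 11 genes and below in 0, where 10.8% and 9.06% of all genes were. For replicate 3 against replicate 1 these counts were 10 and 2 (14.3% and 13.6% of all genes), and against replicate 2 they were 4 and 1 (7.79% and 7.69%). The medians of the 40 genes were 0.132, 0.095 and 0.021, against -0.004, -0.007 and -0.006 for all genes. With a trend on GC content and length removed, the medians were 0.187, 0.251 and 0.046, and the counts were 22 higher and 0 lower, 23 higher and 1 lower, and 6 higher and 2 lower. The balance between replicates 3 and 2 thus turned with this choice. The shares and medians of all genes given above are from the fit without this removal, and are no measure for these larger counts. Those of the fit with the removal are not given here. The larger counts are thus no result about the mitosis genes as against other genes. The labels give replicate numbers but neither dates nor passages for single libraries, so what the numbers stand for cannot be told apart.

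*MKI67*, the Ki-67 protein that coats mitotic chromosomes and is the usual stain for dividing cells, had the largest difference. It was at 501, 1395 and 1535 CPM in control replicates 1, 2 and 3, at 547, 1247 and 1493 CPM with gag-pol, at 552, 1424 and 1534 CPM with gag and at 581, 882 and 2064 CPM with NC. All 4 libraries of replicate 1 lay below the other 8. The log2 difference was 1.18 ± 0.17 between replicates 2 and 1 (2.27-fold, adjusted p = 0.0011) and 1.602 ± 0.17 between replicates 3 and 1 (3.04-fold, adjusted p = 9.72e-05). By construct *MKI67* did not pass, with log2 fold changes of -0.03 for gag-pol, 0.06 for gag and 0.02 for NC against control and an SE of 0.19.

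*CENPF*, a large protein of the outer kinetochore, followed the same order. It was at 246, 451 and 509 CPM in control, at 257, 457 and 486 CPM with gag-pol, at 234, 454 and 502 CPM with gag and at 309, 379 and 608 CPM with NC. All libraries of replicate 1 were again the lowest, with log2 differences of 0.74 ± 0.09 (adjusted p = 5.64e-06) and 1.01 ± 0.09 (2.01-fold, adjusted p = 6.17e-08). *MKI67* and *CENPF* have the longest transcripts of the 40 genes, 12716 and 10290 bases. With a trend on GC content and length removed, the differences between replicates 3 and 1 were 1.23 for *MKI67* and 0.85 for *CENPF*, and both still passed.

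*AURKB* was 0.44 ± 0.07 higher in replicate 2 (adjusted p = 6.16e-05) and 0.47 ± 0.07 higher in replicate 3 (adjusted p = 1.17e-05) than in replicate 1, and its 4 libraries of replicate 1 were below the other 8. *ANLN*, anillin, the scaffold of the contractile ring, was at 70.8, 86.6 and 92.4 CPM in control, at 74.3, 78.9 and 95.6 CPM with gag-pol, at 65.0, 78.0 and 101 CPM with gag and at 65.0, 85.9 and 97.6 CPM with NC. It was higher in replicate 3 than in replicate 1 by 0.49 ± 0.07 (adjusted p = 8.78e-06) and than in replicate 2 by 0.23 ± 0.07 (adjusted p = 0.0158), so the 3 replicate numbers of *ANLN* did not overlap. *TOP2A* was higher by 0.43 in replicate 2 (adjusted p = 9.24e-05) and by 0.38 in replicate 3 (adjusted p = 0.000125). *UBE2C* was higher by 0.38 (adjusted p = 0.000493) and 0.22 (adjusted p = 0.0177), and *CKS2* by 0.30 (adjusted p = 0.0355) and 0.39 (adjusted p = 0.0055).

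*HMMR* moved the other way. Its 4 libraries of replicate 3, at 28.4, 34.3, 26.8 and 32.9 CPM, lay below the other 8, by 0.52 ± 0.08 against replicate 1 (log2 difference -0.52, adjusted p = 1.12e-05) and by 0.47 ± 0.08 against replicate 2 (log2 difference -0.47, adjusted p = 0.000109). With the GC and length trend removed the difference between replicates 3 and 1 was -0.26. The exons of *HMMR* overlap those of *HMMR-AS1* on the other strand by 113 bases, and whether strand was used in counting is not given in the sources used here. *NDC80*, the kinetochore subunit that binds microtubules with NUF2, was lower in replicate 3 than in replicate 1 by 0.23 (log2 difference -0.23 ± 0.09, adjusted p = 0.0347), and the difference was 0.012 with the GC and length trend removed.

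The other genes that rose in replicate 2 were *CENPE* (0.36), *KIF14* (0.33), *BUB1B* (0.22), *CDK1* (0.23) and *BUB1* (0.18), with adjusted p from 0.000367 to 0.0495. In replicate 3, *KIF14* (0.37), *GTSE1* (0.33), *BUB1* (0.29), *KIF20A* (0.27), *KIF2C* (0.26), *PRC1* (0.25) and *AURKA* (0.20) rose against replicate 1, with adjusted p from 0.000247 to 0.0339. Between replicates 3 and 2 the median of the cyclin-CDK switch was -0.199. *CCNB2* (-0.27, adjusted p = 0.0263), *CCNA2* (-0.22, adjusted p = 0.0287) and *CDK1* (-0.21, adjusted p = 0.0439) were lower in replicate 3, as was *CENPE* (-0.25, adjusted p = 0.00856), while *CENPF* (0.27, adjusted p = 0.0289) and *GTSE1* (0.18, adjusted p = 0.0452) were higher. With the GC and length trend removed, *CCNB2* (adjusted p = 0.0697), *CCNA2* (adjusted p = 0.114) and *CDK1* (adjusted p = 0.204) no longer passed. The count between replicates 3 and 2 was 2 without NC replicate 3, 3 without control replicate 2 or replicate number 1, 4 without control replicate 3 or NC replicate 2 and 5 without gag replicate 3. The count between replicates 2 and 1 was 7 without control replicate 2, and that for replicate number was 3 without number 1.

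The summed level of the 40 genes was 4941.5, 6391.6 and 6227.4 CPM in control, 5271, 6414.5 and 7078 CPM with gag-pol, 4770.5, 6221.9 and 6656.5 CPM with gag and 5285.2, 6485 and 7453.3 CPM with NC. Replicate 1 was the lowest of each construct. The highest library was 1.56 times the lowest, and 1.31 times with *MKI67* and *CENPF* left out of the sum, since *MKI67* alone made up 10.1% to 27.7% of it.

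**Figure D5:**
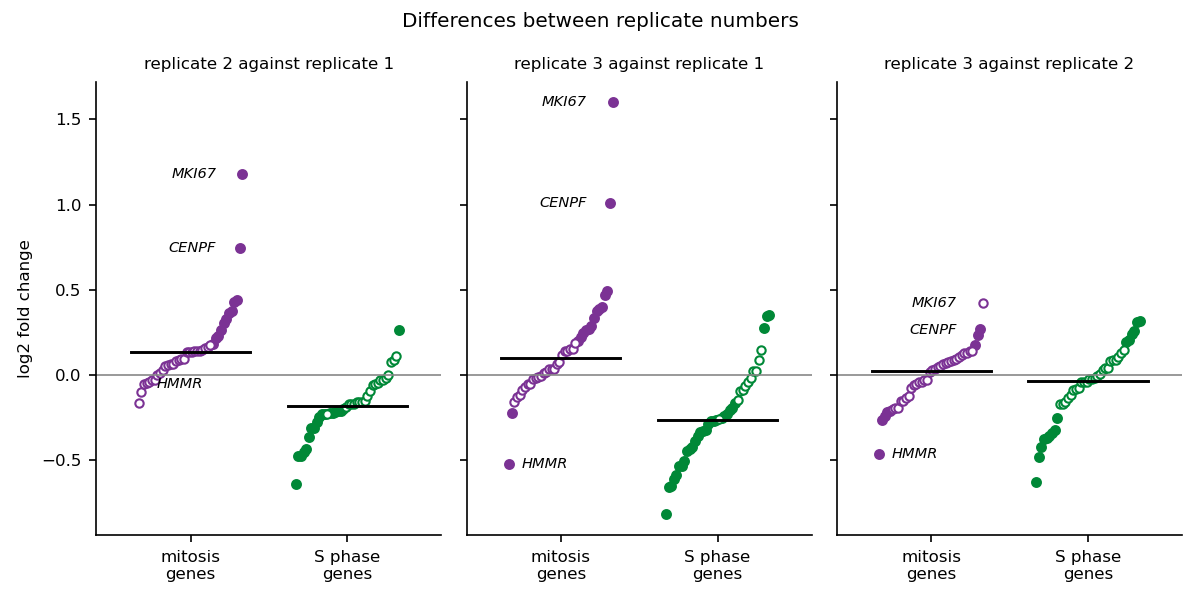
Log2 differences between replicate numbers (y axis) for the 40 mitosis genes (purple) and a list of 40 S phase genes (green), ordered by value within each list. Filled points passed the test at an adjusted p under 0.05 and black lines are medians. Against replicate 1 the medians of the mitosis genes lie above 0 (0.132 and 0.095) and those of the S phase genes below 0 (-0.183 and -0.265), with *MKI67* at 1.18 and 1.602.

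The S phase genes, a list of 40 replication and nucleotide genes that peak earlier in the cycle, had medians below 0 against replicate 1, where those of the mitosis genes were above 0. In replicate 2, 1 was higher and 18 lower than in replicate 1, with a median of -0.183, and in replicate 3, 3 were higher and 26 lower, with a median of -0.265. Of all genes tested, 15.9% were higher and 14.7% lower in replicate 2, and 20.6% higher and 21% lower in replicate 3. *MCM2*, a subunit of the replicative helicase, was lower by 0.46 in replicate 2 (log2 difference -0.46, adjusted p = 2.34e-05) and by 0.45 in replicate 3 (log2 difference -0.45, adjusted p = 1.11e-05), and *PCNA*, the sliding clamp, did not pass in either. Against control, 5 of the 40 S phase genes were higher and 2 lower with gag-pol (median -0.002). With gag 0 were called, and with NC 2 were higher and 2 lower (median -0.045). Over all genes tested, 5.48% were higher and 5.83% lower with gag-pol, 0.699% and 0.384% with gag and 6.04% and 5.15% with NC. The share of S phase genes higher with gag-pol was thus larger than that of all genes tested, although their median was near 0. *TYMS* and *RRM2*, enzymes of nucleotide synthesis, were higher with gag-pol (0.45 and 0.42) and with NC (0.40 and 0.38), with adjusted p from 0.00286 to 0.0143. Both fall outside the rule for named genes and were picked with their values known.

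A wider list of 120 genes of mitosis and its regulation, which holds none of the 40, was examined by the same tests. It includes transcriptional and cell cycle regulators such as *NFYA*, *E2F4*, *RBL1*, *LIN9* and *CDK2*, so that it does not describe mitosis genes alone. With gag-pol 9 rose and 1 fell (median 0.049), with gag 1 rose (median 0.023) and with NC 8 rose and 1 fell (median 0.020). The share called was 8.33% for gag-pol, 0.833% for gag and 7.5% for NC, below the 11.3%, 1.08% and 11.2% of all genes tested. Between the pairs of constructs 20 of the 120 had a higher mean and 12 a lower mean for gag-pol and NC than for gag and control, a share of 26.7% called against 24.7% of all genes tested. Of the 28 kinetochore and centromere genes, the largest group of the list, 8 were higher and 3 lower. Among them *SPC24*, the partner of SPC25 in the NDC80 complex, was higher by 0.47 ± 0.09 (adjusted p = 0.000536) and *CENPH* by 0.30 ± 0.06 (adjusted p = 0.00137). *HJURP*, the chaperone that deposits CENPA, was at 38.8, 50.2 and 42.1 CPM in control, at 57.9, 64.9 and 53.7 CPM with gag-pol and at 45.5, 63.3 and 56.2 CPM with NC, and rose by 0.43 ± 0.09 with gag-pol (adjusted p = 0.00331) and by 0.33 ± 0.09 with NC (adjusted p = 0.0188). *FBXO5*, the inhibitor EMI1 of the anaphase-promoting complex, rose by 0.38 ± 0.09 with gag-pol (adjusted p = 0.00934). In the comparison of pairs *CKAP5*, a microtubule polymerase of the spindle, was higher (0.24 ± 0.05, adjusted p = 0.00224) and *NCAPH2*, a condensin subunit, lower (-0.26 ± 0.06, adjusted p = 0.0022).

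*WEE1*, the kinase that inhibits CDK1, departed from the pattern of the 40 genes. It was at 54.1, 57.4 and 62.8 CPM in control, at 95.7, 74.4 and 71.6 CPM with gag-pol, at 91.2, 75.8 and 79.7 CPM with gag and at 58.8, 62.7 and 66.8 CPM with NC. All gag-pol and gag libraries lay above all control and NC libraries, with log2 fold changes of 0.47 ± 0.10 with gag-pol (adjusted p = 0.00518), 0.50 ± 0.10 with gag (adjusted p = 0.013) and 0.11 ± 0.10 with NC. It was lower with NC than with gag (-0.38 ± 0.10, adjusted p = 0.0117), and missed the threshold between NC and gag-pol (-0.35 ± 0.10, adjusted p = 0.19). *WEE1* was the 1 gene of the wider list that passed with gag.

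*FOXM1* and *MYBL2*, transcription factors that switch on G2 and M genes, did not pass in any comparison of constructs. *FOXM1* was at 191, 194 and 234 CPM in control and at 177, 173 and 212 CPM with NC, a log2 fold change of -0.14 ± 0.07 (adjusted p = 0.206), and was higher in replicate 3 than in replicate 1 by 0.29 ± 0.06 (adjusted p = 0.000651). *MYBL2* was lower in replicate 2 than in replicate 1 by 0.21 (log2 difference -0.21, adjusted p = 0.025) and higher in replicate 3 than in replicate 2 by 0.27 (adjusted p = 0.00486). Of 18 targets of p53, 5 rose and 1 fell with gag-pol, 4 rose with gag and 2 rose and 1 fell with NC. Of all genes tested, 11.3%, 1.08% and 11.2% were called in these comparisons. *CDKN1A*, the CDK inhibitor p21, was at 57.9, 75.98 and 119 CPM in control, at 96.5, 107 and 161 CPM with gag, at 69.3, 92.4 and 118 CPM with gag-pol and at 67.1, 101 and 105 CPM with NC. It rose with gag by 0.55 ± 0.09 (adjusted p = 0.0031), was lower with gag-pol than with gag (-0.39 ± 0.09, adjusted p = 0.017) and lower with NC than with gag (-0.40 ± 0.09, adjusted p = 0.00606). It also differed by 0.80 ± 0.08 between replicates 3 and 1 (adjusted p = 1.47e-07). *MDM2*, another target of p53, did not pass in any of these comparisons.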

How the data were processed

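Libraries were grouped by the construct and replicate number in the labels, and libraries of the same number were taken as 1 passage and harvest, although no dates are given for single libraries. The number was used as a block because the study's methods model construct and harvest date. Deviations from the construct means correlated at 0.14 to 0.54 in the 18 library pairs sharing a number. In the 36 pairs that differed in both number and construct they correlated at -0.50 to 0.07. Deviations within a construct cancel out, so that positive values in the first pairs push those in the second down. The gap is thus partly built in.

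Per the labels and the study's methods, the authors aligned reads to GRCh38.p13 with STAR 2.7.3, used SAMtools 1.8, and deposited raw featureCounts counts per gene symbol, with no normalization. The annotation release, strand setting and treatment of reads with several matches are not given in the sources used here. The labels name the control LifeAct-Dendra2, while the methods name pCDNA for the control of the pathway analysis. All columns were used.

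From the counts, TMM factors, edgeR's filter (minimum count 10, minimum total 15, by construct) and edgeR's robust quasi-likelihood test were run (edgeR 4.0.16, limma 3.58.1, R 4.3.3) on a model of construct plus replicate number. Benjamini-Hochberg adjustment covered 17176 genes. The fit had 6 residual degrees of freedom and a biological coefficient of variation of 10.7%. 3 genes of the wider lists were matched by an older symbol. Lengths, positions and overlaps are from GENCODE release 44, and promoters from RefSeq (GRCh38.p14). Alternatives were DESeq2 1.42.0, other scaling factors, other filters, no block, no robust estimation, *PEG10* left out, only the libraries compared, removal of a GC and length trend, a fold change limit and leaving out each library and each replicate number. Python 3.11.15, pandas 2.3.3 and matplotlib 3.10.9 were used for tables and figures.

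The mitosis genes and the other lists were chosen with earlier results of these data known. In each comparison the genes named are those that passed, at most 12 per direction by adjusted p, or, where fewer than 3 passed, the 3 with the largest change. Library values are given for the 6 genes with the smallest p in the joint test of constructs, the 6 with the smallest p in the test of replicate number, *CDK1*, *CCNB1* and *MKI67*. Of the wider list, *FOXM1*, *MYBL2*, *WEE1* and up to 4 genes that passed with the smallest adjusted p per comparison are named, and of the other lists *MCM2*, *PCNA*, *CDKN1A* and *MDM2*. Exceptions are marked in the text, and library values of other genes that passed, *CKS2* and *PLK1* were added after they were seen.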

Additional observations from a re-analysis of the deposited data

How the results depend on the processing

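Without the replicate block, 0 mitosis genes were called for gag-pol, NC, the joint test of constructs, gag-pol against gag, NC against gag and the pairs of constructs. With only the libraries compared, the counts were 1 for gag-pol against control, 11 for gag-pol against gag and 3 for NC against gag. For gag-pol against gag the count was 1 without robust estimation and 7 with the GC and length trend removed, which gave 22 for replicate 2 against replicate 1. The share of all genes called with this trend removed is not given here. With a required log2 change of 0.5 or more in either direction, 0 were called for gag-pol, NC, gag-pol against gag, NC against gag, the pairs and replicates 3 and 2, 2 between replicates 2 and 1 and 3 between replicates 3 and 1. DESeq2, RLE and upper-quartile factors, no filter, 10 counts in every library and *PEG10* left out kept every count of mitosis genes called within 1.5 times. With 1 library or replicate number left out, the counts ran from 0 to 8 for gag-pol against control, 0 to 1 for gag, 0 to 12 for NC, 0 to 8 for gag-pol against gag, 0 to 15 for NC against gag, 6 to 19 for the pairs, 0 to 11 for the joint test, 3 to 21 for replicate number, 7 to 18 for replicate 2 against replicate 1, 13 to 18 for replicate 3 against replicate 1 and 2 to 11 for replicate 3 against replicate 2. *CKS2* with gag was -0.004 without replicate 3 and 0.266 without replicate 1. *NDC80* between replicates 3 and 1 was 0.012 with the GC and length trend removed. The causes were not tested. At 409 or more counts per gene and library, counting error is below the biological coefficient of variation of 10.7%, an estimate over all genes. Whether depth or the 3 replicates per construct limit single genes more was not tested.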
